A study of Mus musculus with 16 samples.

Results

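The MHC class II pathway was followed in mouse liver through 8 genes of 27446 entries in the table: H2-Aa, H2-Ab1 and H2-Eb1, which encode chains of the surface molecule, Cd74, H2-DMa and H2-DMb1, which encode its chaperones, Ctss, a protease of the loading compartment, and Ciita, the master regulator. They were chosen by symbol and each symbol matched 1 entry with an Ensembl ID. All 16 libraries came from livers of wild-type C57BL/6 mice. In 8 of them the mice had received emodin, an anthraquinone of rhubarb and related plants, by stomach tube at 400 mg/kg for 3 weeks in 0.5% CMC-Na. The other 8 came from controls given 0.5% CMC-Na alone, called vehicle livers here. The labels give neither age nor sex, nor do they say whether 1 mouse gave 1 library, so the p-values measure the spread between libraries, which may in part be technical. The comparison of emodin with vehicle asks how mRNA of antigen presentation differed after a treatment whose liver toxicity is the subject of the study.

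MHC class II molecules carry peptides of engulfed proteins to the surface of antigen-presenting cells, where CD4 T cells read them. The chains assemble with the invariant chain, product of Cd74, which is trimmed in endosomes by proteases such as cathepsin S, and H2-DM then exchanges the remaining fragment for a peptide. CIITA, which binds no DNA itself, docks on factors (RFX, CREB1 and NF-Y) that sit on the X and Y boxes of class II promoters, and interferon gamma induces it, in part through IRF1. In liver the pathway is known from dendritic cells, B cells, Kupffer cells and, at lower levels, sinusoidal endothelium. C57BL/6 mice make no I-E molecule because their E alpha gene is defective, so H2-Eb1 mRNA has no partner chain there. The RNA came from whole liver, in which fewer cells of a type and less RNA per cell cannot be told apart.

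The promoter letters that tie these genes to CIITA are shown first. They mark which of the members searched held an X and a Y box. RefSeq promoter sequences (build GRCm38.p6) were held for 5 of the 8 members: H2-Aa, H2-Eb1, H2-DMa, H2-DMb1 and Ctss. The 250 bases before each start site were searched on both strands for CNNGNAAC, an X box core, followed after 15 to 30 bases by GATTGG, a Y box. This pattern was written with these promoters in view, and 0.18% of all 32851 promoter entries held it. H2-Aa, H2-Eb1 and H2-DMb1 held it, and so did H2-Ob, H2-Oa and H2-Eb2, further class II genes described with the other genes of the pathway. H2-DMb2 did not hold it. Capitals mark the X box and then the Y box in the first 3 lines, which show H2-Aa at chr17:34287847-34287927 on the minus strand, H2-Eb1 at chr17:34305753-34305832 and H2-Ob at chr17:34238795-34238872, both on the plus strand. In the last line, Ctss at chr3:95526735-95526785 on the plus strand, capitals mark the core of an interferon-stimulated response element, searched as GAAA, any 2 bases and GAAA again, which 2.98% of promoter entries held.
H2-Aa: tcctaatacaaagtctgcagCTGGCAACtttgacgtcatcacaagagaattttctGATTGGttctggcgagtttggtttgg
H2-Eb1: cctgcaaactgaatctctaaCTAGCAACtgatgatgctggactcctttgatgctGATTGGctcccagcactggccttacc
H2-Ob: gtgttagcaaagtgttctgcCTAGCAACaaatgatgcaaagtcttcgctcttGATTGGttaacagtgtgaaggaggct
Ctss: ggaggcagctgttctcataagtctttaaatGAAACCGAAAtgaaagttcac
The X and Y boxes were 27 bases apart in H2-Aa, 26 in H2-Eb1, 24 in H2-Ob and 27 in H2-DMb1. The pattern of both boxes was not found in the Ctss window or in either start site of H2-DMa, and the interferon element was found in none of the H2 windows searched. Such matches describe letters and show no binding.

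**Figure D1:**
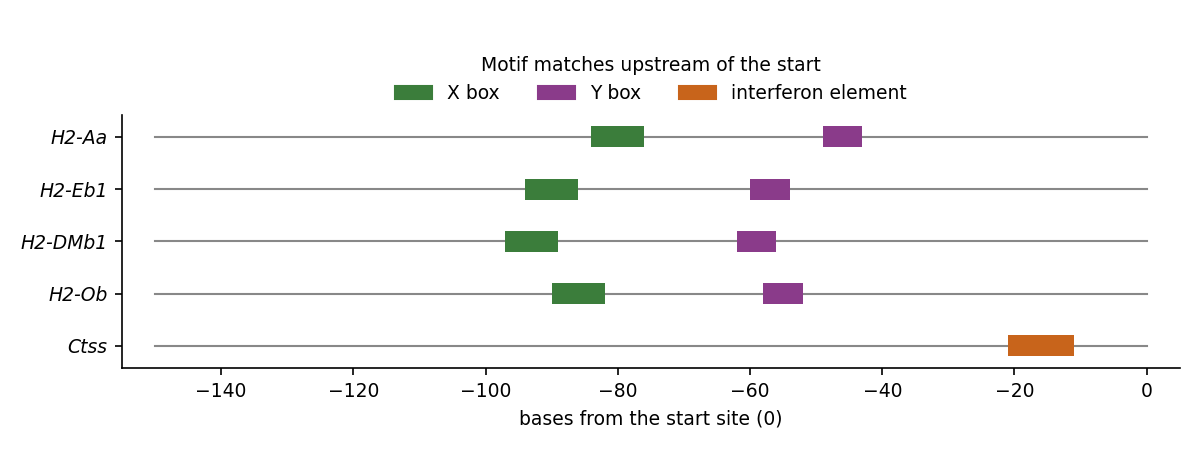
Position of the motif matches in the bases before the RefSeq start site of 5 genes (x axis, bases from the start site), with the X box in green, the Y box in purple and the interferon element in orange. The X box starts 84 to 97 bases before the start in the 4 H2 genes, and the Ctss element starts 21 bases before it.

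The libraries held 28292161 to 48165643 estimated counts in emodin livers and 28683413 to 38629551 in vehicle livers, and all 8 genes had enough counts to be tested (10 to 3891 counts per liver). Checked against its label of liver, each library carried hepatocyte transcripts, with Alb, Ttr, Apoa1, Cps1 and Hnf4a summing to 50190 to 92930 CPM (counts per 1e6 library counts) in emodin livers and 88030 to 115200 CPM in vehicle livers. Levels are CPM after scaling by the TMM method, and folds are emodin over vehicle.

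Messenger RNA of the class II chains, Cd74 and Ciita averaged lower in emodin livers than in vehicle livers, and Ctss averaged higher, but none of these differences passed the test. At an adjusted p under 0.05 (edgeR quasi-likelihood F test, Benjamini-Hochberg over 14308 entries), 0 of the 8 genes were called, where 13.2% of all tested entries were called (7.7% higher and 5.47% lower). All members but Ctss, 7 of 8, had a negative log2 fold change, and the median of the 8 was -0.51, against 0.012 over all tested entries. An unadjusted p under 0.05 was reached by 4 members, H2-Aa, H2-Ab1, H2-Eb1 and Ciita, and by 29.7% of all entries. The DESeq2 Wald test called 1 of the 8, H2-Eb1. What did differ between the groups was the proportion of Ctss to Cd74 within a liver, described further on.

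**Figure D2:**
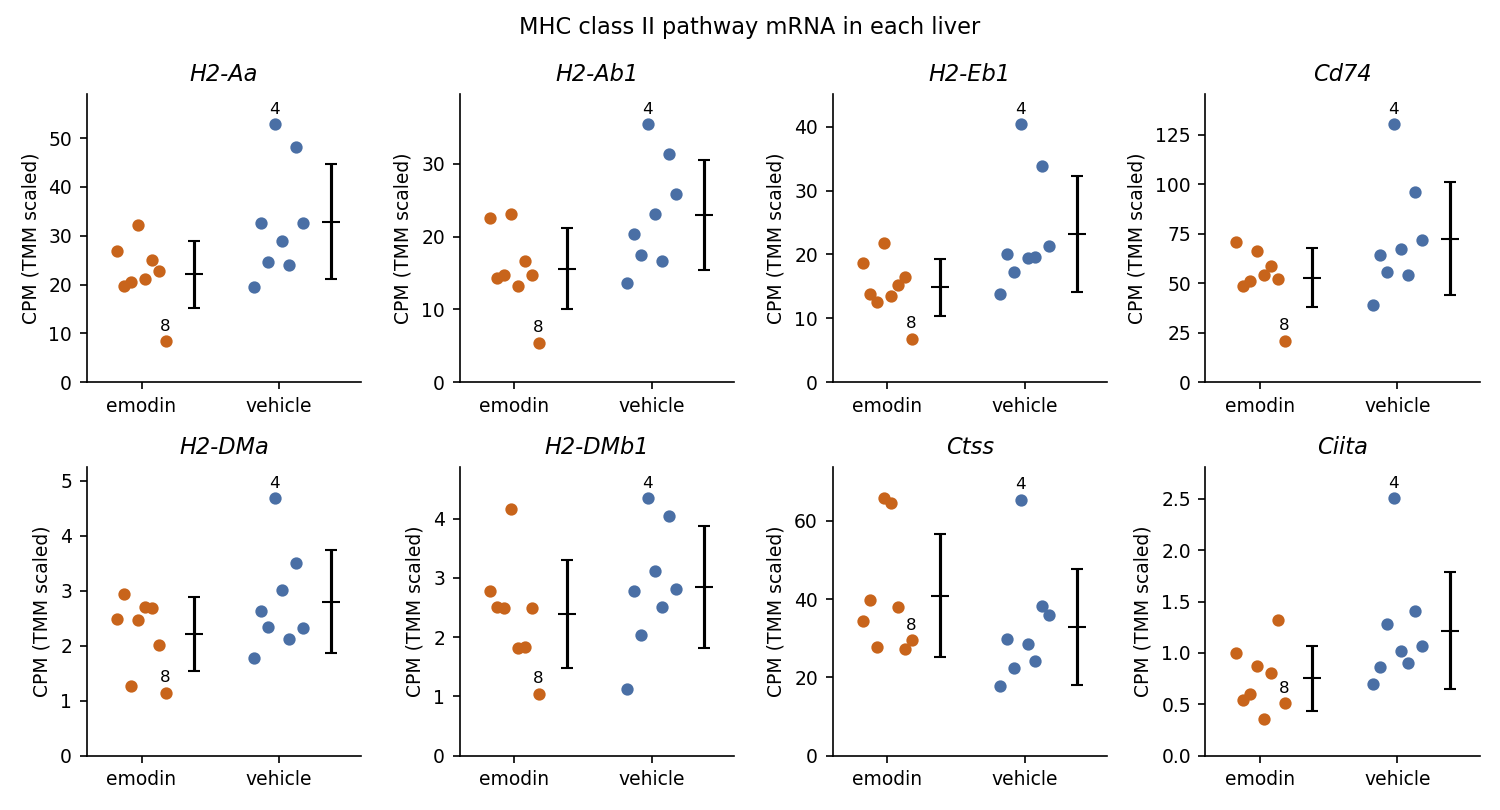
Level of each member in CPM after TMM scaling (y axis from 0) in the 8 emodin livers (orange, left) and the 8 vehicle livers (blue, right), with the mean and SD in black beside the points and livers emodin 8 and vehicle 4 marked by number. For H2-Aa, H2-Ab1, H2-Eb1 and Cd74, emodin 8 is the lowest of the 16 livers and vehicle 4 the highest.

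H2-Aa encodes the alpha chain of the I-A molecule (chromosome 17, 34282744 to 34287823 on mm10, minus strand, protein-coding). It had 8.40 CPM in the lowest, 21.9 CPM at the median and 32.1 CPM in the highest emodin liver, against 19.5, 30.7 and 52.8 CPM in vehicle livers. The groups overlapped: 1 of 8 emodin livers, emodin 8, lay below every vehicle liver, and 7 of 8 lay below the vehicle median. Its log2 fold change was -0.57 ± 0.24 (SE; 95% interval -1.08 to -0.065; edgeR adjusted p = 0.122).

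H2-Ab1, the beta chain of the same molecule (chromosome 17, 34257689 to 34269419, plus strand), had 5.45, 14.7 and 23.2 CPM as lowest, median and highest value in emodin livers, against 13.6, 21.7 and 35.4 CPM in vehicle livers. Emodin 5 and 8 lay below every vehicle liver. The log2 fold change of -0.56 ± 0.25 had an edgeR adjusted p of 0.148.

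H2-Eb1, the E beta chain (chromosome 17, 34305867 to 34316674, plus strand), came nearest to passing. It averaged 14.9 ± 4.47 CPM in emodin livers and 23.2 ± 9.03 CPM in vehicle livers (SD, n = 8 each). Its values ran from 6.78 over a median of 14.5 to 21.8 CPM in emodin livers, against 13.9, 19.8 and 40.4 CPM in vehicle livers, and 4 of 8 emodin livers lay below every vehicle liver. The log2 fold change was -0.64 ± 0.23 (95% interval -1.14 to -0.15; edgeR adjusted p = 0.0786), and with DESeq2 it was -0.65 (adjusted p = 0.031).

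Cd74, which encodes the invariant chain (chromosome 18, 60803848 to 60812652, plus strand), was the most abundant member. It had 20.9 CPM in the lowest, 53.0 CPM at the median and 70.6 CPM in the highest emodin liver, against 39.2, 65.9 and 130.2 CPM in vehicle livers. The low value was that of emodin 8 and the high one that of vehicle 4, while the other 7 emodin livers (48.4 to 70.6 CPM) lay within the vehicle range. Its log2 fold change was -0.46 ± 0.24 (edgeR adjusted p = 0.219).

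H2-DMa and H2-DMb1, which encode the chains of the peptide-exchange factor H2-DM (chromosome 17, 34119541 to 34139101 and 34153072 to 34160230, both on the plus strand), differed less. H2-DMa averaged 2.21 ± 0.675 CPM in emodin livers and 2.80 ± 0.932 CPM in vehicle livers (log2 fold change -0.34 ± 0.23, edgeR adjusted p = 0.338). H2-DMb1 averaged 2.39 ± 0.907 CPM in emodin livers and 2.85 ± 1.04 CPM in vehicle livers (-0.25 ± 0.27, edgeR adjusted p = 0.565). Reads of H2-DMb1 may be shared with its neighbouring paralog H2-DMb2, since how shared reads were counted is not given in the sources used here, so the values of the pair are uncertain one by one.

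The 7 negative values were smaller in size without emodin 8, without vehicle 4 and without both, whereas that of Ctss was larger, at 0.38, 0.54 and 0.59. Without emodin 8 the median log2 fold change of the 8 genes was -0.38, and without vehicle 4 it was -0.36. Without both it was -0.24, and Cd74 then had -0.16 and H2-DMb1 -0.026. The call of 0 of 8 genes held in each of these fits and when any other single liver was dropped.

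Per kilobase of annotated exon, the order of the members by mean level was the same in both groups. In emodin livers it ran from Cd74 (31.4 ± 8.94) and Ctss (30.1 ± 11.5) over H2-Eb1 (7.64 ± 2.3), H2-Ab1 (6.08 ± 2.18) and H2-Aa (5.81 ± 1.81) to H2-DMb1 (1.42 ± 0.54), H2-DMa (0.642 ± 0.196) and Ciita (0.0788 ± 0.0328), all in CPM per kilobase ± SD of 8 livers. In vehicle livers it ran from Cd74 (43.1 ± 17.0) and Ctss (24.1 ± 10.9) over H2-Eb1 (11.9 ± 4.64), H2-Ab1 (8.95 ± 2.95) and H2-Aa (8.65 ± 3.11) to H2-DMb1 (1.69 ± 0.617), H2-DMa (0.812 ± 0.27) and Ciita (0.128 ± 0.0597). In emodin livers the neighbours Cd74 and Ctss, H2-Eb1 and H2-Ab1, and H2-Ab1 and H2-Aa lay within 1 SD of each other. In vehicle livers the chain neighbours did so too, while Ctss lay more than 1 SD below Cd74. Lengths are the union of all annotated exons, which lowers the value of genes with long alternative exons.

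Chain genes and the invariant chain gene went up and down together from liver to liver. Within the emodin group the log2 CPM of Cd74 went with that of H2-Aa (Pearson r = 0.982, exact permutation p = 0.00104; Spearman rho = 0.952, p = 0.00114), H2-Ab1 (r = 0.978, p = 0.00114; rho = 0.833, p = 0.0154) and H2-Eb1 (r = 0.946, p = 0.00278; rho = 0.81, p = 0.0218). Within the vehicle group the same pairs had r of 0.976, 0.975 and 0.972 (exact permutation p = 0.000124, 2.48e-05 and 0.000248) and rho of 0.976, 1.0 and 0.881 (p = 0.000397, 4.96e-05 and 0.00724). Without the 2 livers farthest from the Cd74 median, r was still 0.962, 0.877 and 0.81 in emodin livers and 0.974, 0.976 and 0.922 in vehicle livers. Of 14 such relations, 7 genes in 2 groups, these 6 had a Benjamini-Hochberg adjusted p of at most 0.00432. They were not alone: in vehicle livers H2-DMa, H2-DMb1, Ctss and Ciita also went with Cd74 (exact permutation adjusted p = 0.0013, 0.0029, 0.00058 and 0.0046). In emodin livers the same genes had 0.054, 0.031, 0.38 and 0.34. The pairs share a library and its depth.

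Ctss encodes cathepsin S (chromosome 3, 95526786 to 95556403, plus strand), the protease that makes the last cut of the invariant chain in dendritic cells, B cells and macrophages. It had 27.3 CPM in the lowest, 36.2 CPM at the median and 65.8 CPM in the highest emodin liver, against 17.9, 29.2 and 65.4 CPM in vehicle livers. Emodin 4 and 5 (65.8 and 64.6 CPM) stood high together with vehicle 4, so the groups overlapped, and the log2 fold change of 0.32 ± 0.26 did not pass (95% interval -0.24 to 0.87; edgeR adjusted p = 0.441).

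Set against Cd74 in the same liver, however, Ctss was 1.72-fold higher with emodin. The log2 ratio of Ctss to Cd74 in emodin 1 to 8 was -1.04, -0.28, -0.88, -0.006, 0.26, -0.63, -0.92 and 0.50, against -1.33 to -0.99 in vehicle livers. Apart from emodin 1, no emodin liver lay within the vehicle range. The means were -0.38 ± 0.58 in emodin livers and -1.16 ± 0.13 in vehicle livers (SD, n = 8 each), a difference of 0.78 (exact two-sided permutation p = 0.000466, 0.00466 after Benjamini-Hochberg adjustment over 10 ratios). When single livers were dropped, 16 fits in all, the difference ran from 0.66 to 0.88, with a permutation adjusted p of at most 0.00932. Within a group, Ctss went with Cd74 in vehicle livers (r = 0.976, exact permutation p = 9.92e-05; rho = 0.952, p = 0.00114; r = 0.914 without vehicle 1 and 4). In emodin livers r was 0.387 (exact permutation p = 0.378; rho = 0.381, p = 0.36; r = 0.59 without emodin 1 and 8). The difference between these correlations was not tested.

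**Figure D3:**
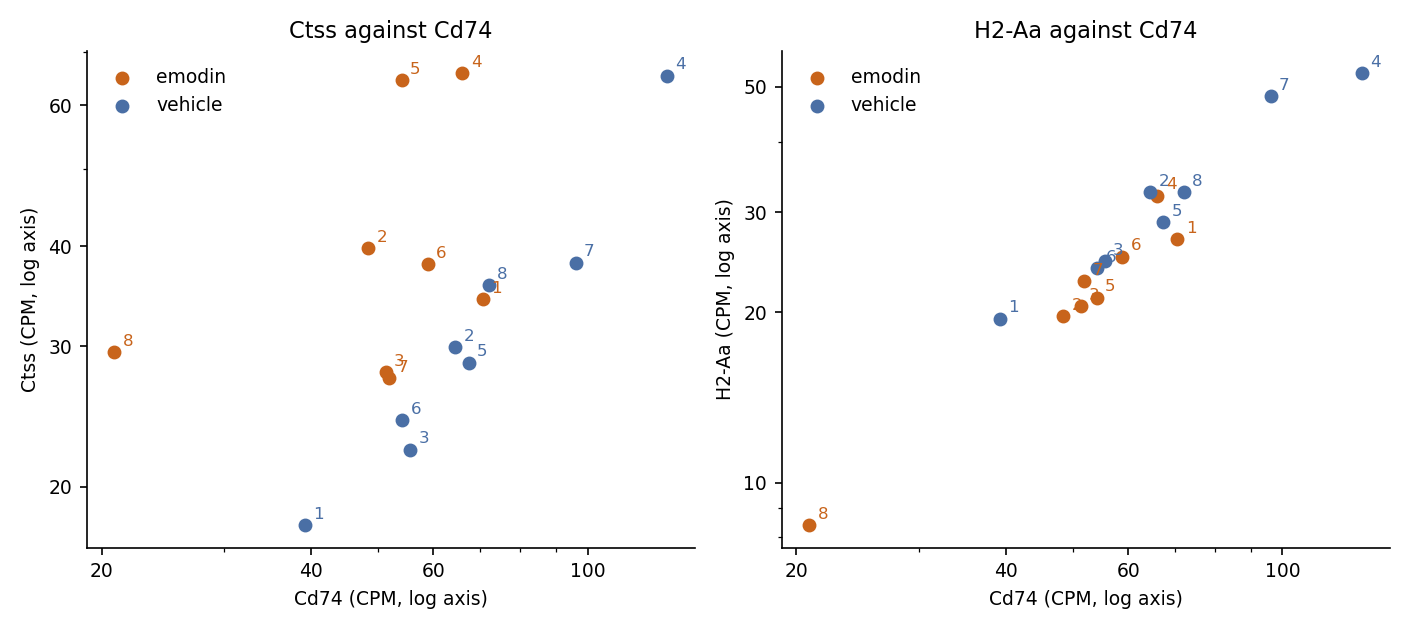
Level of Ctss (left) and of H2-Aa (right) against Cd74 in CPM on log axes, each point 1 liver with its replicate number, emodin in orange and vehicle in blue. On the left the vehicle livers lie along 1 line with the emodin livers above it or at its edge, and on the right the livers of both groups lie along 1 band, from emodin 8 (8.40 CPM of H2-Aa) to vehicle 4 (52.8 CPM).

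The other ratios to Cd74 differed less between the groups. Relative to Cd74, H2-Aa differed by -0.14, H2-Ab1 by -0.15 and H2-Eb1 by -0.19 on the log2 scale (exact two-sided permutation p = 0.0305, 0.0525 and 0.0314, adjusted p = 0.0536, 0.075 and 0.0536). Ciita differed by -0.21, H2-DMa by 0.10 and H2-DMb1 by 0.20 (exact permutation adjusted p = 0.425, 0.536 and 0.236). Without emodin 4, all 3 chain ratios passed, at -0.17, -0.19 and -0.22 (permutation adjusted p = 0.0145, 0.0311 and 0.0311), and without vehicle 4 those of H2-Aa and H2-Ab1 did (-0.16 and -0.19, 0.0396 for both).

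**Figure D4:**
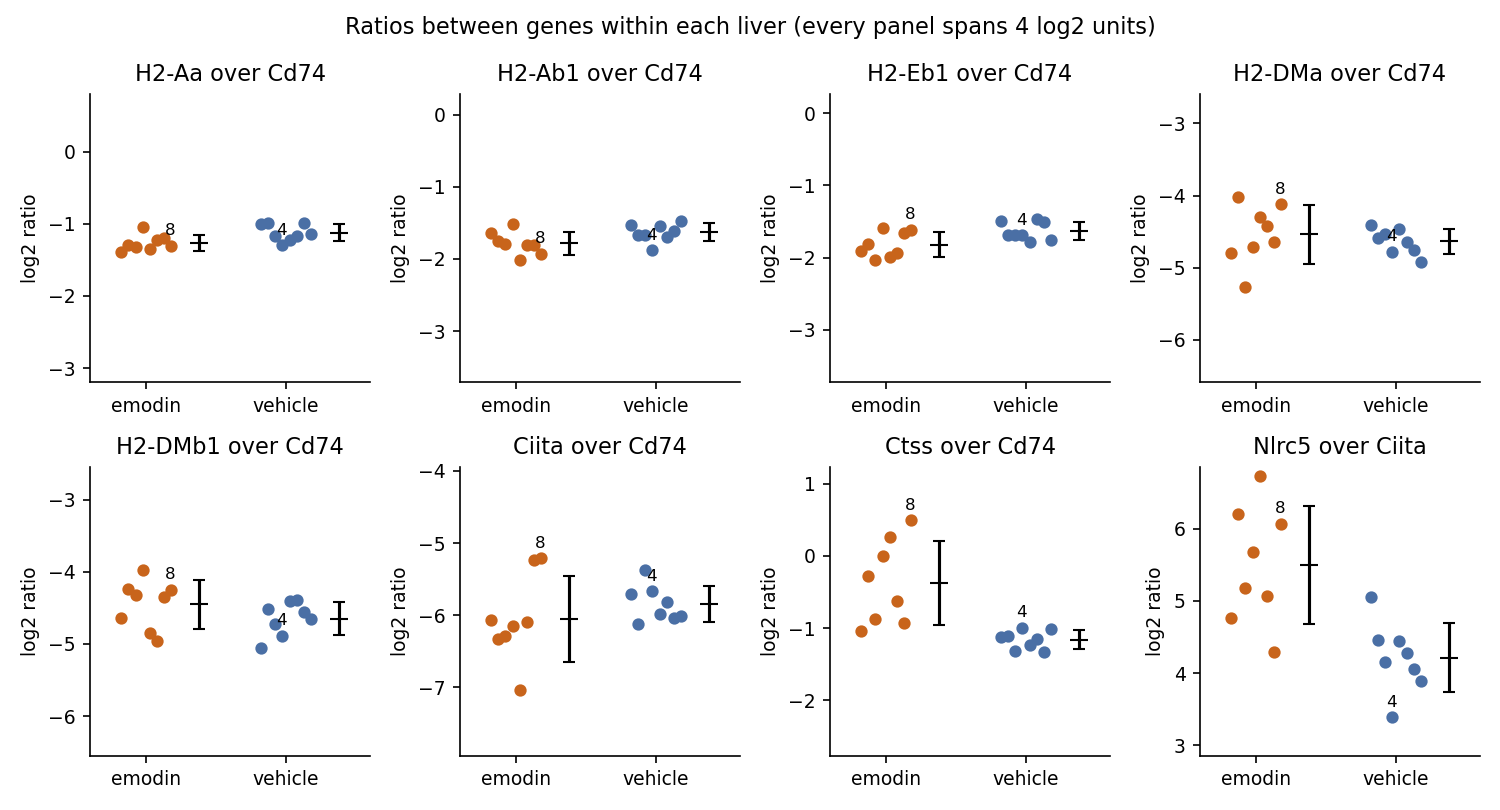
Log2 ratio between genes within each liver (y axis, every panel spans 4 log2 units), emodin in orange on the left and vehicle in blue on the right, with mean and SD in black and livers emodin 8 and vehicle 4 marked. The panel of Ctss over Cd74 separates 7 of 8 emodin livers from all vehicle livers, while the chain genes stay within a narrow band.

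Ciita, which encodes the class II transactivator (chromosome 16, 10480059 to 10528418, plus strand), was the scarcest member. It had 0.356 CPM in the lowest, 0.703 CPM at the median and 1.32 CPM in the highest emodin liver, against 0.695, 1.04 and 2.51 CPM in vehicle livers, from 10 to 75 counts a liver. Emodin 2, 3, 5 and 8 lay below every vehicle liver, and emodin 7 lay above all vehicle livers but vehicle 4 and 7. Its log2 fold change of -0.69 ± 0.29 was the most negative of the members and did not pass (95% interval -1.31 to -0.077; edgeR adjusted p = 0.123).

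Genes that lead from interferon gamma to Ciita were read beside it. Irf1, which binds the Ciita promoter, had 0.53 ± 0.18 (edgeR adjusted p = 0.0647), with emodin 2, 4, 5 and 8 above every vehicle liver. It passed in 4 of 25 alternatives, with DESeq2 and without emodin 1, 6 or 7. The receptor genes Ifngr1 and Ifngr2 had 0.16 ± 0.11 and -0.16 ± 0.11, and the kinase genes Jak1 and Jak2 had 0.14 ± 0.07 and -0.15 ± 0.07 (edgeR adjusted p = 0.335, 0.329, 0.181 and 0.178). Ifng itself had 11 counts over the emodin livers and 11 over the vehicle livers, with 10 of 16 livers at 0, and was not tested. Socs1, an inhibitor of the same path, had 84 counts over the emodin livers and 65 over the vehicle livers and was not tested either.

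Among 20 tested genes that complete the pathway, 2 rose, 3 fell and 15 did not pass. The share of 5 in 20 stands beside 13.2% over all entries. H2-Ob, the beta chain of H2-O, which inhibits H2-DM in B cells, had 0.204 CPM in the lowest, 0.426 CPM at the median and 0.715 CPM in the highest emodin liver, against 0.248, 1.11 and 2.04 CPM in vehicle livers. All 8 emodin livers lay below the vehicle median, although vehicle 6 with 0.248 CPM lay below 7 of them. It fell by 1.25 ± 0.36 on the log2 scale (edgeR adjusted p = 0.0288). The partner chain H2-Oa had 78 counts over the emodin livers and 54 over the vehicle livers, and H2-Eb2 had 34 in emodin livers and 34 in vehicle livers, and neither was tested. H2-DMb2 had -0.72 ± 0.49 (edgeR adjusted p = 0.342).

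Among the lysosomal proteases and their partners, 2 genes rose. Ctsl, which encodes cathepsin L, known for trimming the invariant chain in thymic epithelium, rose 1.35-fold, with 810 ± 183 CPM in emodin livers and 601 ± 31.2 CPM in vehicle livers (log2 fold change 0.43 ± 0.12, edgeR adjusted p = 0.0264). Ctsz, a lysosomal carboxypeptidase gene, rose 1.27-fold, with 171 ± 18.1 CPM in emodin livers and 134.9 ± 10.7 CPM in vehicle livers (0.34 ± 0.08, edgeR adjusted p = 0.00895). Each of these exceeded the whole vehicle range in 6 of 8 emodin livers. Lgmn, which encodes the asparagine endopeptidase legumain, had 0.40 ± 0.18 and Ifi30, a thiol reductase gene, 0.29 ± 0.18 (edgeR adjusted p = 0.146 and 0.29). Sppl2a, whose product clears the membrane stub of the invariant chain, had 0.25 ± 0.10 (0.0895). Ctsb, Ctsd, Ctsh and the inhibitor gene Cst3 had values from -0.079 to 0.053, none of which passed.

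Of the factors that bind the X and Y boxes, Nfyb, a subunit of NF-Y, fell by 0.29 ± 0.07 on the log2 scale, with 25.4 ± 3.24 CPM in emodin livers and 31.1 ± 1.83 CPM in vehicle livers (edgeR adjusted p = 0.0175, 7 of 8 emodin livers below every vehicle liver). Creb1, which binds beside the X box, fell by 0.26 ± 0.07, with 17.6 ± 1.43 CPM in emodin livers and 20.99 ± 2.2 CPM in vehicle livers (edgeR adjusted p = 0.0298). Both serve very many promoters. The RFX genes Rfx5, Rfxap and Rfxank had 0.076 ± 0.143, -0.038 ± 0.123 and 0.059 ± 0.086, and Nfya and Nfyc -0.079 ± 0.127 and 0.12 ± 0.08 (edgeR adjusted p from 0.317 to 0.868). The ubiquitin ligase genes of class II turnover, Marchf1 and Marchf8, had 0.10 ± 0.39 and -0.24 ± 0.12 and did not pass. Of the 5 calls among the genes that complete the pathway, that of Ctsz was kept in all 25 alternatives. H2-Ob lost its call in 8, among them without emodin 2 or vehicle 3, 4 or 5. Creb1 lost its call in 9, among them without emodin 2, 4 or 6 or vehicle 1, 3, 5 or 7. Ctsl lost its call in 5, among them without emodin 4, and Nfyb lost its call in 2. The count of 5 went down to 3 without any 1 of emodin 2, emodin 4, vehicle 3 and vehicle 5.

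**Figure D5:**
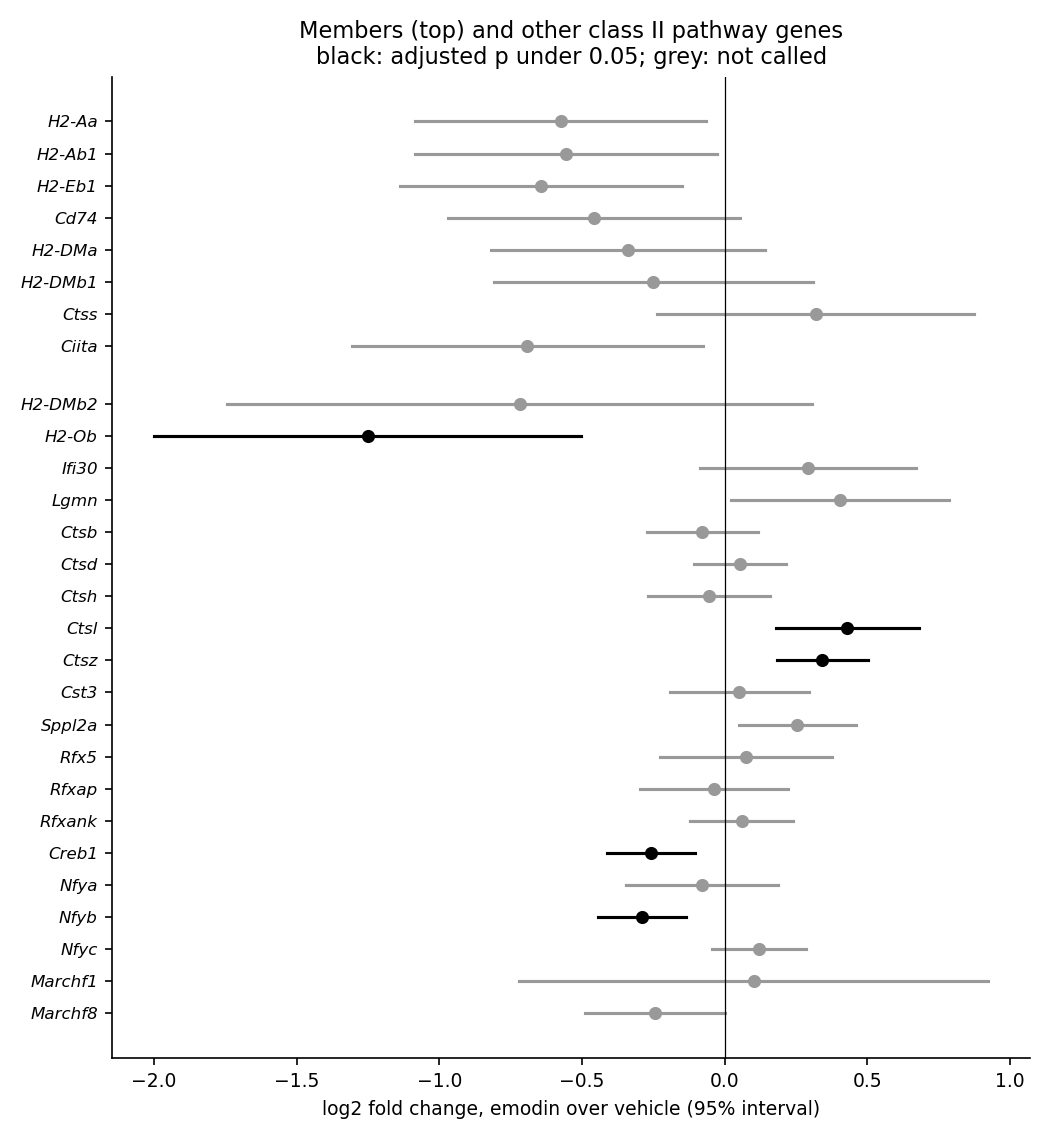
Log2 fold change of emodin over vehicle with its 95% interval (x axis) for the 8 members at the top and 20 other genes of the class II pathway, black where the edgeR adjusted p was under 0.05 and grey where it was not. H2-Ob has the most negative value (-1.25), and the called proteases Ctsl and Ctsz stand at 0.43 and 0.34.

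MHC class I presentation, which displays peptides from inside the cell, was measured with 13 genes for comparison. Of these, 3 rose, 0 fell and 10 did not pass, beside 13.2% of all tested entries called and 7.7% called higher, and the median log2 fold change was 0.38. All 13 values were above 0, although those of H2-K1, Calr and Pdia3 changed sign in 1, 1 and 4 of 25 alternatives. The genes that rose were the immunoproteasome genes Psmb8 (0.88 ± 0.24, edgeR adjusted p = 0.0252) and Psmb10 (0.65 ± 0.17, 0.023) and Nlrc5, the class I counterpart of Ciita (0.66 ± 0.15, 0.00952). The calls of Psmb8 and Psmb10 were lost with array weights and in the rank-sum test, and without emodin 3 or emodin 7 the count was 5. Nlrc5 averaged 35.2 ± 9.33 CPM in emodin livers and 22.3 ± 3.53 CPM in vehicle livers, and 6 of 8 emodin livers exceeded the vehicle range.

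The ratio between the transactivator genes of the 2 classes was higher in emodin livers, although Ciita itself was not called (edgeR adjusted p = 0.123). The log2 ratio of Nlrc5 to Ciita was 5.50 ± 0.82 in emodin livers and 4.21 ± 0.48 in vehicle livers, a 2.43-fold difference (exact two-sided permutation p = 0.00218, adjusted p = 0.0109), and 6 of 8 emodin livers exceeded the highest vehicle ratio. It ran from 1.11 to 1.46 on the log2 scale when single livers were dropped and kept its call. The ratio of B2m, the light chain of class I molecules, to Cd74 differed by 0.53 (exact permutation p = 0.0322, adjusted p = 0.0536). Both ratios were chosen after their values were seen, and their p-values do not account for that choice.

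Genes of the T cell side of class II presentation and of co-stimulation gave 0 calls in 10 tested genes with edgeR, 1 with DESeq2 and 4 at an unadjusted p under 0.05. Over all 14308 entries 13.2% were called with edgeR, 2532 entries were called with DESeq2, and 29.7% had an unadjusted p under 0.05. Their median log2 fold change was -0.57. The T cell receptor subunit gene Cd3e had 0.404 ± 0.27 CPM in emodin livers and 0.96 ± 0.544 CPM in vehicle livers (-1.24 ± 0.47, edgeR adjusted p = 0.0897). Lag3, an inhibitory receptor that binds class II, had 0.884 ± 0.366 CPM in emodin livers and 1.64 ± 0.996 CPM in vehicle livers (-0.89 ± 0.35, edgeR adjusted p = 0.0979). Cd3e passed without emodin 1 and in DESeq2, with 0.0423 as the lowest adjusted p, and Lag3 passed without vehicle 4 (edgeR adjusted p = 0.0462). Cd86 and Cd40, which co-stimulate T cells, had 0.086 ± 0.263 and 0.62 ± 0.38 and did not pass.

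Marker lists of cells that carry class II had medians of different sign, and their part in the values of the class II genes was not tested. Counts of calls in these lists stand beside 13.2% of all tested entries called, 7.7% higher and 5.47% lower. The 6 tested genes of the B cell list had a median of -0.81, with 6 of 6 values negative. Cd79a, a signalling chain of the B cell receptor, had -1.01 ± 0.41, and Pax5, a B cell transcription factor, -0.93 ± 0.40, and neither passed (edgeR adjusted p = 0.108 and 0.126). The 8 B cell markers summed to 1.81 to 5.05 CPM in emodin livers and 2.43 to 10.8 CPM in vehicle livers. In the dendritic cell list, 1 of 10 fell, Xcr1, a receptor of cross-presenting dendritic cells (-0.80 ± 0.26, edgeR adjusted p = 0.0493, lost in 18 of 25 alternatives). The sum of that list was 10.95 to 14.4 CPM in emodin livers and 9.78 to 17.6 CPM in vehicle livers. In the T and NK cell list 0 of 7 passed, with 7 of 7 values negative (Cd4 changed sign in 2 of 25 alternatives), and its sum was 2.71 to 6.46 CPM in emodin livers and 3.88 to 15.7 CPM in vehicle livers.

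Kupffer cell and macrophage markers gave 0 calls in 10 tested genes, beside 13.2% of all tested entries called, and a median of 0.32. Their sum was 252.3 to 670 CPM in emodin livers and 163.4 to 710.7 CPM in vehicle livers. C1qa and C1qb, complement genes of macrophages, came nearest, with 0.40 ± 0.27 and 0.42 ± 0.28. Of the alternatives, C1qa and C1qc passed only without emodin 8 and vehicle 4 together, and C1qb passed in none. The 3 livers with most Ctss also had the largest Kupffer sums: emodin 5 (670 CPM), emodin 4 (520.6 CPM) and vehicle 4 (710.7 CPM). Emodin 8, lowest for the class II chains, had a Kupffer sum of 303.8 CPM, within the range of the other emodin livers, and the smallest B cell sum of all livers. Single genes of the Kupffer list could differ from its sum: Csf1r was lowest of all 16 livers in emodin 8 (14.85 CPM) and highest in vehicle 4 (73.52 CPM). Vehicle 4, highest for the chains, had the largest sums of the B cell, dendritic cell, Kupffer cell and monocyte lists. The monocyte list had 0 of 6 calls and a median of 0.91, with Plac8 and Cd14 at 1.09 ± 0.37 and 1.08 ± 0.39 (edgeR adjusted p = 0.0645 and 0.0761), and sums of 46.3 to 133.7 CPM in emodin livers and 38.9 to 176.8 CPM in vehicle livers. Plac8 and Cd14 each passed in 5 of 25 alternatives, DESeq2 among them. No gene of any marker list was at 0 in all 16 livers.

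Of the remaining lists of liver cell markers, the hepatocyte list held the 1 call, beside 13.2% of all tested entries called. Calls numbered 0 of 3 for neutrophils (S100a8 0.90 ± 0.50, S100a9 0.50 ± 0.54) and 0 of 6 for sinusoidal endothelium (Oit3 -0.42 ± 0.14, Stab1 0.23 ± 0.10). Stellate cells gave 0 of 6 (Reln -0.56 ± 0.19, Lrat -0.51 ± 0.28) and biliary cells 0 of 5 (Sox9 1.15 ± 0.46, Spp1 0.51 ± 0.33), and none of these values passed in the main edgeR fit. Of 25 alternatives, Oit3 passed in 3, Reln in 4 and Sox9 in 1. Of the 5 hepatocyte genes, Alb fell by 0.50 ± 0.15 on the log2 scale (edgeR adjusted p = 0.0309). It lost its call in 9 of 25 alternatives, among them without emodin 2 or 5 or vehicle 3, 4, 5 or 8 (adjusted p up to 0.0726).

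The genes whose pattern across livers was most like that of the chains included genes known from white blood cells. Likeness was measured as Pearson's r between deviations from the group means in log2 CPM, over 16 livers, with the mean of H2-Aa, H2-Ab1, H2-Eb1 and Cd74, and 12851 genes other than the members were ranked. The 10 nearest were Il16, Zmynd15, Csf1r, Thy1, Fcgr3, Carmil2, Prex1, Ptpn22, Apobr and Nfam1, with r from 0.89 down to 0.814. Csf1r, the receptor of macrophage growth factor and a gene of the Kupffer cell list, had r = 0.87, and Fcgr3, a receptor for antibody, 0.863. Thy1, known from T cells, had 0.869, and Ptpn22, a phosphatase of lymphocytes, 0.841. Without emodin 8 and vehicle 4 the 10 values lay between 0.657 and 0.792. Since these genes were picked for their likeness, no p is given. Prex1, a guanine nucleotide exchange factor of leukocytes, was the 1 of the 10 that passed the test of emodin against vehicle, with 3.50 CPM on average in emodin livers and 5.55 CPM in vehicle livers (log2 fold change -0.66, edgeR adjusted p = 0.0327).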

How the data were processed

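Liver RNA of 16 samples was sequenced, and the deposited table holds whole numbers per gene with totals that differ between columns. They were taken as estimated counts that the authors deposited unscaled, although the table is named for FPKM; in every liver the value 2 was commoner than 1, so 1 need not mean 1 read. The tools named per the submitters' processing notes, with the build mm10, are HISAT2, HTSeq 0.6.1, cutadapt 1.9.1, Cufflinks 2.2.1 and SAMtools 0.1.19; their roles, the annotation and the handling of shared reads are not given in the sources used here. All 16 value columns were used (0 left aside).

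Counts, whole as deposited, were filtered with filterByExpr, scaled by TMM (factors 0.929 to 1.16) and tested with the robust quasi-likelihood test of edgeR 4.0.16 in R 4.3.3, group as the single term, Benjamini-Hochberg adjusted over 14308 entries, calls at an adjusted p under 0.05. The SE is the absolute log2 fold change over the square root of F. The code was tested on simulated data. Alternatives were DESeq2 1.42.0 (test and size factors), voom with array weights in limma 3.58.1, a rank-sum test, other scaling, no filter, the replicate numbers as a block, and each liver left out. Ratios within a liver used log2 CPM (prior count 2) and exact permutation over 12870 assignments (scipy 1.17.1). Coordinates and exon lengths are from GENCODE M21, promoters from RefSeq (GRCm38.p6). No use of molecular identifiers is stated, so counts need not be independent molecules.

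The members and lists were chosen with earlier results of these data known. Named were all members, the called genes of each list or else its 2 genes with the smallest p, and the 10 genes most like the chains; other genes of the lists, such as Lgmn, Ifi30, Sppl2a, the Jak and Ifngr genes, Cd86, Cd40, Cd79a and Pax5, were named after their values were seen. Some results in these lists are not reported here.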

Additional observations from a re-analysis of the deposited data

Results flagged for a closer look

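In their own group, 3 values stood apart, with a gap to the nearest liver that exceeded Dixon's 95% limit for 8 samples. They came from 36 sets of 8 values checked, of which chance flags about 1 in 20. Cd74 in emodin 8 had 20.9 CPM, and its gap took up 0.553 of the emodin range. Ciita in vehicle 4 had 2.51 CPM (0.609 of the vehicle range), and Ctss in vehicle 4 had 65.4 CPM (0.573). Emodin 8 also had the lowest array weight of the 16 livers (0.276), while vehicle 4 had 1.15.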

How the results depend on the processing

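Of 200 log2 fold changes of members under alternatives, 199 kept their direction and their side of the threshold, and H2-Eb1 passed with DESeq2. The count of members called was 0 in all alternatives but the DESeq2 Wald test (1), and 0 with the replicate block. The replicate numbers of the titles did not pair the livers: correlations of same-numbered livers ran from -0.149 to 0.245, and 2 of 8 emodin livers matched their own number best. With the replicate block, 1263 entries, 3 genes of the wider class II list and 0 of the Ciita path were called, and 3 class I genes. All entries called numbered 1884, and 1246 (without emodin 4) to 2200 with 1 liver left out. The wider class II list (5 calls) had 3 with total counts as scaling, with array weights and in the rank-sum test, and 3 to 5 with 1 liver left out. The Ciita path (1 call) had 0 with total counts, without a filter, with array weights and in the rank-sum test, 2 with the DESeq2 Wald test, and 0 to 2 with 1 liver left out. The class I list (3 calls) had 5 with the DESeq2 Wald test, 1 with array weights and in the rank-sum test, and 3 to 5 with 1 liver left out. The co-stimulation list (0 calls) had 1 with the DESeq2 Wald test and 0 to 1 with 1 liver left out. Without emodin 8 and vehicle 4 together, a setting chosen after seeing the data, 1350 entries, 3 genes of the wider list, 0 of the Ciita path and 0 members were called. The causes were not tested. Of 170 ratios between genes under alternatives, 151 kept direction and call, 8 gained a call and 11 lost one. Depth limits Ciita, Ifng, Socs1, H2-Oa, H2-Eb2 and the B and T cell markers most: a difference there may be missed.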
